A study of Mus musculus with 4 samples.

Results

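The mucin genes described here are Muc1, Muc4, Muc13, Muc15, Muc16 and Muc20, whose products span the cell membrane, and Muc5b, whose product forms gels. They were chosen by gene name among the probes of the array and not by a cutoff on their signals, though earlier results of these data were known. The salivary gel mucin Muc19 was kept apart. All 7 genes were on the array, with 9 of its 55681 probes, and 4 of them (Muc1, Muc13, Muc20 and Muc5b) had enough signal to be among the 22312 genes tested. Total RNA came from salivary glands (SGs) of female C57/BL6 mice aged 10 weeks, labelled as submandibular glands (SMGs) with sublingual glands (SLGs), from which lymph nodes and fat had been dissected away. The methods name SMGs in the heading of the array section and SGs in its text. Each of 4 one-colour Agilent arrays received Cy3-labelled cRNA of 1 sample, 2 labelled Myd88-KO (Myd88-/-) and 2 labelled Wildtype (Myd88+/+). Per the methods, the Myd88-deficient line had been backcrossed to C57BL/6 mice and mice of both genotypes had heterozygous parents. MyD88 is the adaptor through which most Toll-like receptors and the receptors of interleukin-1 signal.

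Mucins are proteins with long stretches of serine and threonine that carry dense O-linked sugars. The membrane-bound members stand on the apical surface of epithelial cells, where they form a barrier, can be shed, and can pass signals through short tails inside the cell. Gel-forming mucins such as Muc5b are packed into granules, secreted and joined into large polymers that give mucus its viscosity. In salivary glands, mucous acini make gel mucins and the cells that line ducts and acini carry membrane mucins such as Muc1.

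Signals are given as log2 of the processed spot intensity minus the 75th percentile of the same array, so that 0 is the level of a bright probe and negative values are dimmer. A difference is the mean of the Myd88-/- arrays minus the mean of the Myd88+/+ arrays. Levels of different probes were not compared as amounts of RNA, because each probe binds with its own strength. They served to pick the brightest probe of a gene and to sum the levels of marker lists. Since whole glands were used, fewer cells of a type and less RNA per cell cannot be told apart.

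The probes below are those on which the comparisons turn, shown by their last 30 bases of 60 in the direction of the transcript, with the polyadenylation signal AATAAA in capitals where it occurs. Positions are of mm9. The Muc1 stretch lies at chr3:89034995-89035024 (plus strand), the Muc13 stretch at chr16:33819939-33819968 (plus strand), the Muc20 stretches at chr16:32786143-32786172 and chr16:32777512-32777541 (minus strand) and the Muc5b stretch at chr7:149058961-149058990 (plus strand).
Muc1: cagtaacagttcaccccagttgtctgttgg
Muc13: gaaaggtatttttgttattatttgttctta
Muc20, first probe: tcctctgcctggttattgtatttcggtaaa
Muc20, second probe: tctgagactgaactattatcAATAAAttct
Muc5b: ccctaagctgcAATAAAccctggcactgtg

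The signal AATAAA stood in 3 of the 9 probes, 1 each for Muc5b, Muc16 and Muc20. A match is a likeness of letters, and no transcript ends were compared with it. The GC content of the 9 probes ran from 35.0% to 55.0%. Each probe had 1 spot per array, so that no value of a mucin could be averaged over spots.

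The arrays differed in sensitivity within each genotype. The share of the 55681 probes well above background was 52.2% on array 1 and 68.4% on array 2 of Myd88-/-, and 74.1% on array 1 and 55.1% on array 2 of Myd88+/+, with no saturated spot. The Myd88 probe read 1.51 and 1.41 on the Myd88-/- arrays against 1.15 and 1.07, a log2 difference of 0.35, and so was not lower on the arrays labelled Myd88-KO. Which exons were deleted is not given in the sources used here, so the probe is no test of the genotype, and every direction below rests on the labels.

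Muc1, the widely expressed membrane mucin of glandular epithelia, had the largest positive difference among the tested mucins. In Myd88-/- glands its probe read -3.55 on array 1 and -3.36 on array 2, and in Myd88+/+ glands -4.39 on array 1 and -4.43 on array 2. Both Myd88-/- arrays lay above both Myd88+/+ arrays. Of the latter, array 2 was not well above background, so that Muc1 was among the tested genes only through the Myd88-/- arrays, where it was higher, and its difference is set against a level measured on 1 Myd88+/+ array. The log2 difference was 0.96 with a standard error of 0.12, or 1.95-fold, with a 95% interval of 0.62 to 1.30 (n = 2 per genotype). In limma the unadjusted p was 0.00164 and the p adjusted over all genes 0.194, so Muc1 did not pass the adjusted threshold of 0.05. The probe is dim, with processed intensities of 22.0 and 23.2 against 15.3 and 12.5. Probes with 10 spots at such levels had a median SD between spots of 0.29 to 0.44 log2 units within an array, whereas the SD between the Myd88+/+ arrays was 0.03. The 95% interval of Muc1 may therefore be too narrow. Under normexp background correction Muc1 differed by 0.36 (unadjusted p = 0.0187 in limma), and with trended and robust moderation the unadjusted p was 0.0801. With quantile normalization the log2 difference was 0.87 with a standard error of 0.61 (unadjusted p = 0.235 in limma). With median scaling the unadjusted p in limma was 0.0926, with a standard error of 0.54 that the 4 tested mucins shared.

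Muc13, a membrane mucin best known from the intestinal and airway lining, differed in the opposite direction. In Myd88-/- glands its signal was 1.19 (array 1) and 1.11 (array 2), and in Myd88+/+ glands 1.71 (array 1) and 2.27 (array 2), all well above background. Both Myd88-/- arrays lay below both Myd88+/+ arrays, which themselves differed by more than the Myd88-/- arrays did. The log2 difference was -0.84 with a standard error of 0.22, 1.79-fold lower on the Myd88-/- arrays, with a 95% interval of -1.48 to -0.20 (n = 2 per genotype). In limma the unadjusted p was 0.0223 and the adjusted p 0.241. Between the arrays with many detected probes the log2 difference was -0.60, and between those with few it was -1.08. At this level the median SD between spots of 10-spot probes was 0.05 to 0.06.

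Muc20, a membrane mucin that binds the receptor Met in the kidney, has 2 probes that the files assign to different transcripts. The first read 0.48 and 0.36 on the Myd88-/- arrays and 0.00 and 0.20 on the Myd88+/+ arrays. The groups did not overlap, and the log2 difference was 0.32 (standard error 0.13, 95% interval -0.05 to 0.68, n = 2 per genotype), with an unadjusted p of 0.0715 and an adjusted p of 0.337 in limma. The second probe read -3.38 and -3.52 against -3.52 and -4.03, with Myd88-/- array 2 and Myd88+/+ array 1 level, and its difference of 0.33 was not tested on its own. Both probes were well above background on all 4 arrays and their mean differences were nearly the same. Between the arrays with many detected probes the second probe differed by 0.005, and between those with few by 0.65. For the first probe these values were 0.36 and 0.28, so the likeness of the 2 means is no further support.

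**Figure D1:**
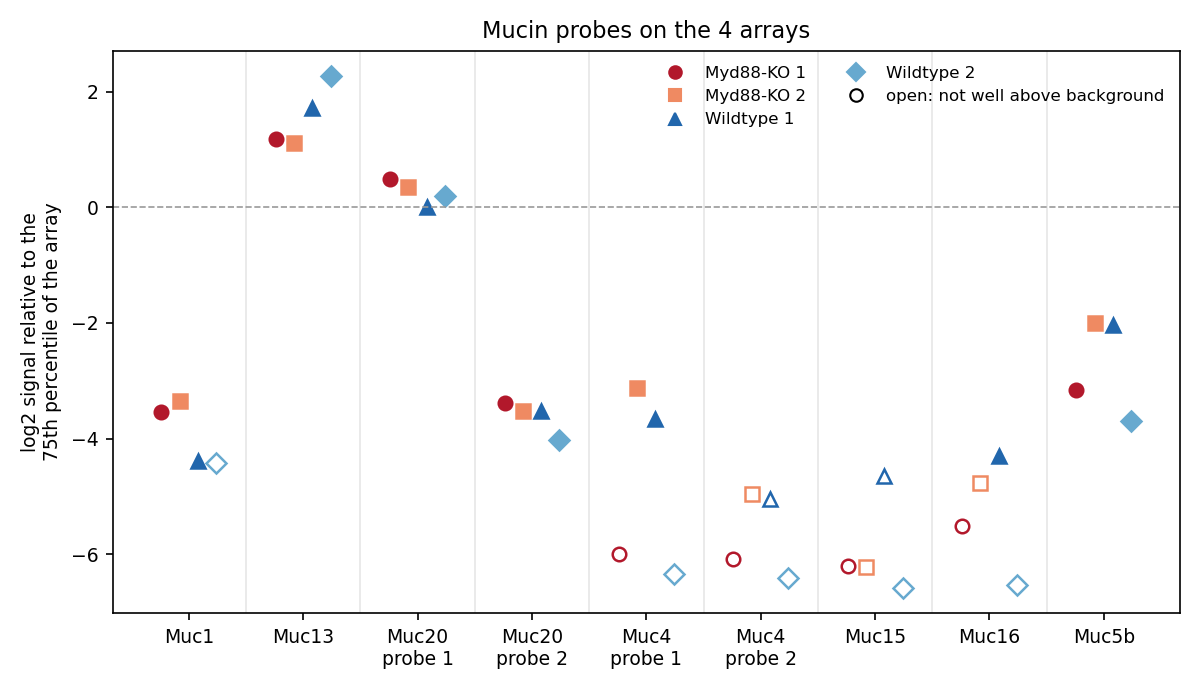
The log2 signal of each of the 9 mucin probes relative to the 75th percentile of the array is plotted for the 4 arrays, with Myd88-KO arrays in red tones and Wildtype arrays in blue tones; open symbols mark spots not well above background. For Muc1 and the first Muc20 probe the Myd88-KO points lie above the Wildtype points and for Muc13 below them, the second Muc20 probe is level on Myd88-KO 2 and Wildtype 1, and Muc4, Muc16 and Muc5b are higher on those same arrays than on the other two.

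The remaining membrane mucins were too dim to compare. Muc4, the large mucin that pairs with the receptor ErbB2, has 2 probes. One, at chr16:32782278-32782337, was well above background on Myd88-/- array 2 (-3.12) and Myd88+/+ array 1 (-3.67) and not on the others (-5.99 and -6.35). The other Muc4 probe was well above background on no array and lay between -6.41 and -4.96. Those 2 arrays are the ones with the most detected probes of their genotype. For Muc15, a small heavily glycosylated membrane mucin, the probe at chr2:110577682-110577741 was not well above background on any array, with signals of -6.21 and -6.22 against -4.64 and -6.58. Muc16, the very large mucin known as the tumour antigen CA125, was well above background on Myd88+/+ array 1 alone, at -4.30, and its other arrays lay between -6.53 and -4.77. None of these 3 genes was tested, no fold is given for them, and the groups overlapped for each.

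Muc5b, the gel-forming mucin of airway and salivary mucus, was well above background on all 4 arrays but varied widely within each genotype. In Myd88-/- glands it read -3.16 (array 1) and -2.00 (array 2), and in Myd88+/+ glands -2.03 (array 1) and -3.69 (array 2). The groups overlapped, and the log2 difference of 0.28 had a standard error of 0.74 and a 95% interval of -1.84 to 2.40 (n = 2 per genotype, adjusted p = 0.880 in limma). The higher values were again on the 2 arrays with the most detected probes. Within the pair of arrays with many detected probes the log2 difference of Muc5b was 0.03, and within the pair with few it was 0.53. Without Myd88-/- array 2 the log2 difference turned to -0.30, and without Myd88+/+ array 2 to -0.55. Leaving out Myd88+/+ array 1 gave 1.11 and leaving out Myd88-/- array 1 gave 0.86. The upper end of the interval corresponds to 5.28-fold higher on the Myd88-/- arrays.

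Over the 4 tested mucins, limma called 0 after adjustment, against 0% of the 22312 genes. At an unadjusted p under 0.05, 1 mucin was higher (Muc1) and 1 lower (Muc13) on the Myd88-/- arrays, where 16.7% of all tested genes had such a p, 9.82% higher and 6.83% lower. Muc1 had been tested only through the group in which it was higher, and among the 3 mucins well above background on all 4 arrays 0 were higher with such a p, so these counts are no support for a difference in the mucins. The methods' t-test on log2 values gave 0 after adjustment and 1 without, Muc1. Both arrays of one genotype lay beyond both of the other for 3 of the 4 mucins, 2 above and 1 below, against 52% of all genes (33.2% above and 18.7% below). The median log2 difference of the 4 mucins was 0.30 and that of all tested genes 0.06. The share higher on the Myd88-/- arrays among genes with an unadjusted p under 0.05 in limma varied with the setting. It was 59% with the scaling used here, 42.9% with cyclic loess and 49.3% with the percentile taken over detected probes. With median scaling it was 24.1%, but there the 4 tested mucins all had a standard error of 0.54. A p there followed the size of the difference and not the gene's own spread, so 24.1% is not comparable with the other shares.

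**Figure D2:**
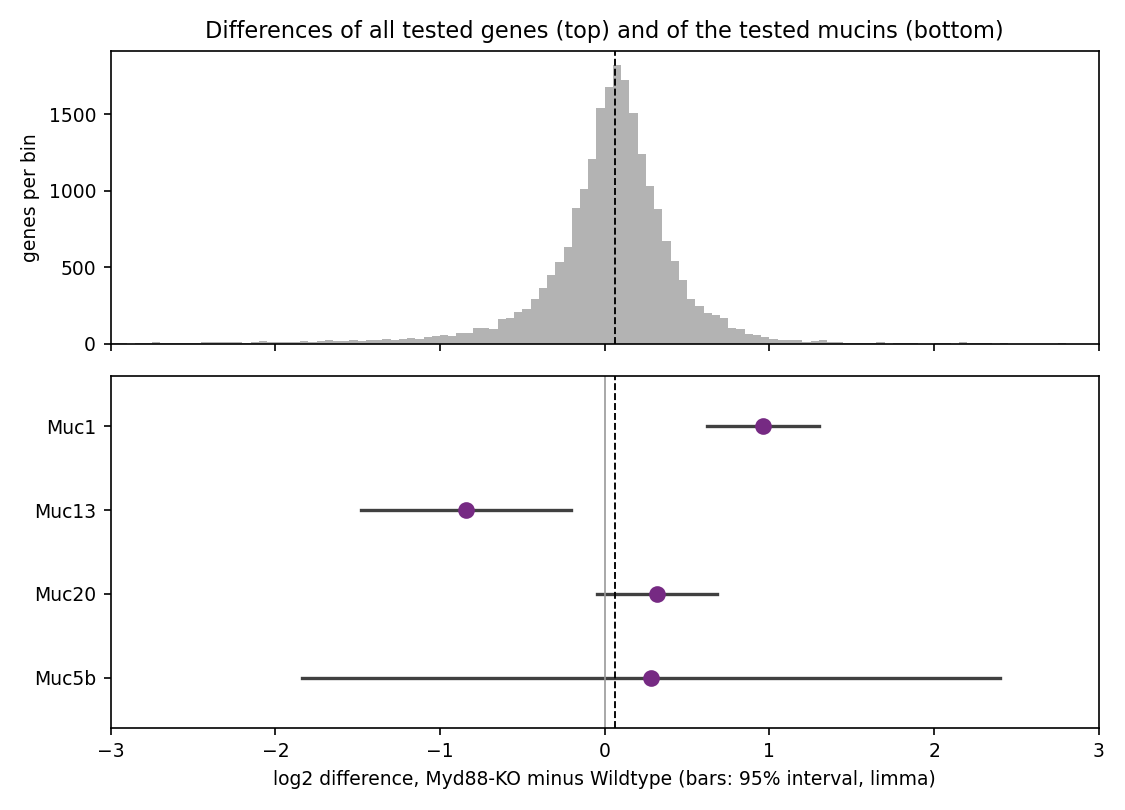
The top panel is a histogram of the log2 differences (Myd88-KO minus Wildtype) of the 22312 tested genes, of which 112 lie outside the plotted range; the bottom panel gives the 4 tested mucins, with bars for the 95% interval from limma and a dashed line at the median of all genes. The bars of Muc1 and Muc13 lie on opposite sides of 0, and those of Muc20 and Muc5b cross it.

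For 3 of the 4 tested mucins, Muc1, Muc13 and Muc20, the direction held under the other background correction and the other scalings. Most of the remaining alternatives could not have turned it. They change only the test or the genes tested, or leave out 1 array from groups that do not overlap. For Muc1 the log2 difference lay between 0.36 and 1.06 over 17 alternatives, with a stricter filter on dim probes leaving it untested, and for Muc13 between -1.12 and -0.57 over 18. For Muc20 it lay between 0.22 and 0.42 over 18, and for Muc5b between -0.55 and 1.11. In none of these was a mucin past the adjusted threshold. The lowest adjusted p in any setting was 0.169 for Muc1 and 0.0881 for Muc13.

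**Figure D3:**
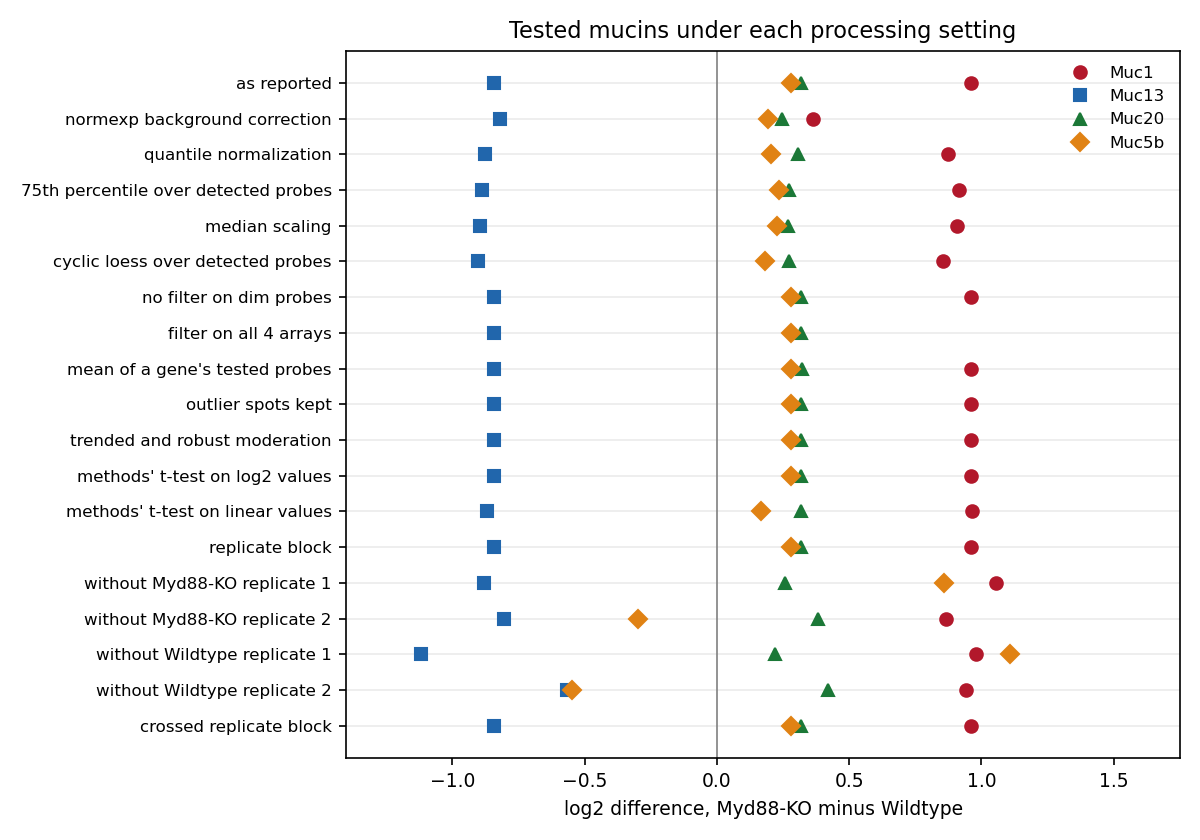
Each row is a processing setting and each symbol the log2 difference (Myd88-KO minus Wildtype) of 1 tested mucin under it. Muc13 stays left of 0 and Muc1 and Muc20 right of it in every row where they are tested, Muc1 moves to 0.36 with normexp background correction, and Muc5b crosses 0 when either Myd88-KO replicate 2 or Wildtype replicate 2 is left out.

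The regions before the start of Muc1 and Muc13, the mucins with an unadjusted p under 0.05, are shown for context. They are the 250 bases before the annotated start in RefSeq (GRCm38.p6, plus strand), chr3:89228806-89229055 for Muc1 and chr16:33793787-33794036 for Muc13, which has a second annotated start. Capitals mark matches on either strand to 5 short patterns, named NF-kB-like, STAT-like, AP-1-like, GC box and TATA box, whose letters follow the sequences.
Muc1: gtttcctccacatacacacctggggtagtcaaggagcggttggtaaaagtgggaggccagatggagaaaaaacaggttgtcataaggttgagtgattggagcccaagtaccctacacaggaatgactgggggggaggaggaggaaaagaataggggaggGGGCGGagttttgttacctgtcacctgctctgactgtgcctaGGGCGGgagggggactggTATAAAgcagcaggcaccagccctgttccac
Muc13: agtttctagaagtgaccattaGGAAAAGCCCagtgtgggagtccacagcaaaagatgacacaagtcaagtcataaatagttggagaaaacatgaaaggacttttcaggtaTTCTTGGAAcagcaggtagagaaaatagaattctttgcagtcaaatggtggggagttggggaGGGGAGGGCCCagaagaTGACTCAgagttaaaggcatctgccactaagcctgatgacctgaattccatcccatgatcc

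The Muc1 window held a TATA box, TATAAA, that begins 31 bases before the start, a pattern found in 12.4% of 32851 such windows. It also held 2 copies of the GC box, GGGCGG, which 32.7% of the windows hold, and no match to the other 3 patterns. The Muc13 window held 1 match to the AP-1-like pattern, TGANTCA, present in 6.75% of all windows. A match to the STAT-like pattern, TTCNNNGAA, present in 7.02% of all windows, begins 140 bases before the start of Muc13. The NF-kB-like pattern is a GGG followed after any 5 bases by CC. It had 4 matches at 3 positions in the Muc13 window, of which 3 overlap one another, and 45.8% of all windows hold at least 1. A match is a likeness of letters and not a bound site. Of the 7 mucins, 5 had a window in this table, and Muc5b and Muc15 had none.

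Genes close to the mucins were compared with them. Muc1 has 14 tested genes within 100 kb of its probe, and 1 of them, Trim46, had an unadjusted p under 0.05, against 16.7% of all tested genes. The Trim46 probe lies 3.14 kb away on the opposite strand and read -3.46 and -3.03 on the Myd88-/- arrays against -4.80 and -4.16. Neither of the latter was well above background, so Trim46 was tested only through the Myd88-/- arrays, where it was higher. No fold is given for Trim46, and its p is no support for a difference. Thbs3, on the other side of Muc1 at 4.30 kb, differed by 0.04. Of the 7 mucins, 3 (Muc4, Muc13 and Muc20) lie on chromosome 16, and the brighter Muc4 probe is 3.87 kb from the first Muc20 probe on the other strand. Muc13 had no tested gene within 100 kb. Muc5b has Muc5ac, its gel-forming neighbour, 54.1 kb away, with signals of -2.75 and -2.48 against -2.70 and -3.61 and a log2 difference of 0.54 whose groups overlapped. Tollip, an inhibitor of Toll-like receptor signalling 8.78 kb from the Muc5b probe, differed by 0.23 (adjusted p = 0.427 in limma). A long intergenic RNA 53.9 kb from the Muc5b probe differed by 0.88 (unadjusted p = 0.00569, adjusted p = 0.203 in limma).

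For the mucins whose 4 values spanned at least 1 log2 unit, the genes with the most similar values over the 4 arrays were sought. The measure was the root mean square difference after each gene was centred on its own mean. For Muc1 it was 0.013 with Tmprss9, a membrane-bound serine protease, 0.025 with a long intergenic RNA and 0.042 with A830060N17. For Muc13 it was 0.039 with Baz1a, a subunit of chromatin remodellers, 0.051 with the microtubule protein Mtap1a and 0.064 with the neuronal proteolipid Nnat. For Muc5b it was 0.032 and 0.042 with 2 long intergenic RNAs and 0.039 with the tyrosine kinase Src. These were picked from 22312 genes over 4 arrays, so close likeness is a description of these values alone. Mtap1a and Nnat were not well above background on either Myd88-/- array.

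**Figure D4:**
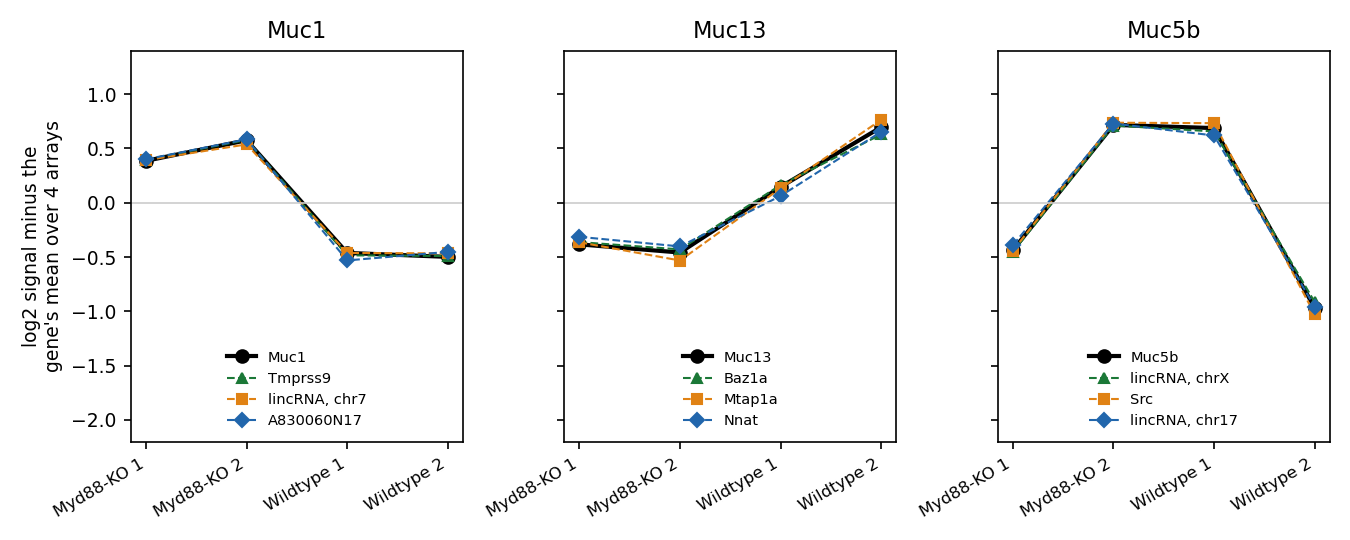
For Muc1, Muc13 and Muc5b, the log2 signal of each array minus the gene's mean over the 4 arrays is plotted with the 3 tested genes of most similar values. Muc1 and its nearest genes are high on both Myd88-KO arrays, Muc13 and its nearest genes are low there, and Muc5b and its nearest genes are high on Myd88-KO 2 and Wildtype 1.

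Other mucin and mucin-like genes were listed to place the 7. Of 18 such genes 12 were on the array and 9 were tested, with 7 higher and 2 lower on the Myd88-/- arrays, a median log2 difference of 0.36, 4 with an unadjusted p under 0.05 (all higher, against 9.82% of all tested genes) and 0 after adjustment in limma. The 3 largest positive differences without overlap were those of Smgc, a secretory product of the Muc19 gene (1.57, standard error 0.14), the mucin-like Mucl1 (0.38) and Prol1, the main low-weight SMG mucin also called Muc10 (0.37). Muc19 itself read 8.56 and 8.38 against 8.53 and 8.68, with overlapping groups and a log2 difference of -0.13, and its second probe differed by -0.31. The intestinal mucins Muc2 and Muc3 and the gastric mucin Muc6 were well above background on no array. Smgc passed the adjusted threshold with normexp background correction and with trended and robust moderation, and Prol1 with the latter.

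The enzymes that build mucin sugars differed in both directions. Of 45 O-glycosylation genes, 36 were tested, 21 higher and 15 lower, with a median log2 difference of 0.04, and 2 higher and 6 lower had an unadjusted p under 0.05, against 9.82% and 6.83% of all tested genes. None passed the adjusted threshold in limma. Gcnt1, which adds the branch that turns core 1 into core 2 sugars, read -0.79 and -1.90 on the Myd88-/- arrays against 1.27 and 1.38. Gcnt1 thus differed by -2.67 log2 units (standard error 0.42, adjusted p = 0.196 in limma), and the other Gcnt1 probe, detected above background on 3 of 4 arrays, by -1.87. Gal3st2, a sulfotransferase of galactose, differed by -2.16 and its second probe, also well above background on 3 arrays, by -1.29. Galnt6, which starts O-glycans, differed by -0.84, yet its second probe, well above background on all 4 arrays, differed by 0.50, so the probes disagree. The largest positive differences without overlap were those of Gcnt3, another branching enzyme (0.93), Gne, which begins sialic acid synthesis (0.73), and the GDP-fucose carrier Slc35c1 (0.49). Gcnt1 passed the adjusted threshold with normexp correction, median scaling and trended and robust moderation. With median scaling the 4 tested mucins all had a standard error of 0.54, so calls there followed the size of a difference.

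Genes for folding, granule formation and secretion of mucins had smaller differences. Of 24, 17 were tested, 13 higher and 4 lower, with a median log2 difference of 0.14; 3 had an unadjusted p under 0.05, all higher, and 0 an adjusted one in limma. The share of all tested genes with such a p was 16.7% in either direction and 9.82% higher, so a count of 3 is not far from it. The genes were Ern2, an endoplasmic reticulum stress sensor of mucous cells (0.46), Spdef, a transcription factor of goblet and mucous cells (0.44), and Creb3l1 (0.34). Marcks, which takes part in mucin secretion, differed by -0.25 and Creb3l4 by -0.13. Among 15 tested partners of membrane mucins (receptors, ligands and shedding proteases) 9 were higher and 6 lower, with a median of 0.06 and 0 with an unadjusted or adjusted p under 0.05. Met, the receptor bound by Muc20, differed by 0.39, the protease St14 by 0.24 and the lectin Lgals3 by 0.17, and Adam17, a sheddase of Muc1, by -0.90. Adam17 was well above background on both Myd88+/+ arrays and 1 Myd88-/- array, so it was tested only through the group in which it was higher, and its second probe differed by -0.25.

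**Figure D5:**
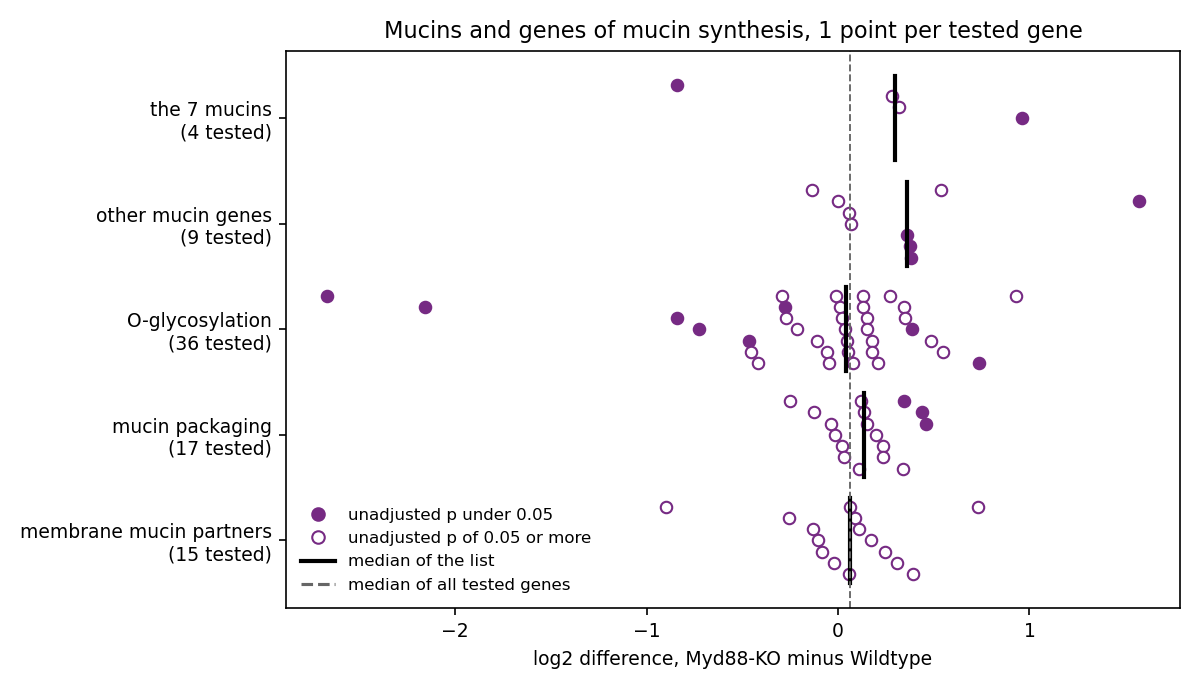
Each point is the log2 difference (Myd88-KO minus Wildtype) of 1 tested gene in the 7 mucins and 4 lists of related genes; filled points have an unadjusted p under 0.05 in limma, thick bars are list medians and the dashed line the median of all tested genes. The O-glycosylation genes spread furthest, down to Gcnt1 at -2.67, while the packaging and partner genes stay within 1 log2 unit of 0.

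Markers of the gland and of other tissues were read beside the mucins. Markers of duct cells, which carry Muc1, were higher on the Myd88-/- arrays for 7 of 10 genes, with a median log2 difference of 0.46. In limma 0 passed the adjusted threshold and 6 had an unadjusted p under 0.05 (all higher, against 9.82% of all tested genes). Lower were Krt19 (-0.28), Cftr (-0.18) and Foxi1 (-0.17). The summed linear levels of the duct genes were 493 and 499.7 against 337 and 347. They came mostly from 1 bright gene, Krt18 (log2 signals of 8.25 and 8.36 against 7.77 and 7.76), and do not measure the number of duct cells. Medians were 0.27 for 8 submandibular acinar genes, 0.31 for 4 sublingual genes, -0.06 for 9 granular convoluted tubule genes and -0.05 for 6 myoepithelial genes. Of the acinar genes 6 were higher and 2 lower, Smr3a (-1.86) and Psp (-0.185). Their summed levels overlapped between genotypes, at 4556 and 3909 against 4116 and 4196. Of the genes of these gland lists on the array, 0 lacked a probe well above background on at least 1 array. In contrast, all tested markers were lower for B cells (8 genes, median -2.89) and T cells (10 genes, -1.90). The same held for skeletal muscle (11 genes, -4.07) and adipocytes (10 genes, -0.80). Among the T cell genes Cd3e (-0.06), Cd4 (-0.04) and Cd8b1 (-0.06) hardly differed, and their groups overlapped. The median of 5 parotid genes was -0.57, with 4 lower, down to Prh1 (-2.41), and 1 higher, Car6 (0.39). For 10 macrophage genes the median was 0.01. The summed level of the muscle genes was 3.54 and 3.58 on the Myd88-/- arrays and 23.5 and 131 on the Myd88+/+ arrays. That of the B cell genes was 3.90 and 3.75 against 18.6 and 10.9, and that of the adipocyte genes 219.5 and 372 against 517 and 510.1. Of the mesothelial markers, 4 of 6 did not exceed background on any array, and the 2 tested had a median of 0.22. Of the stratified oral epithelium markers 1 of 8 was tested (0.49), and of the goblet and airway markers 5 of 9 (median 0.33). The part of these tissues in the values of Muc1, Muc13 and the genes of the related lists, Gcnt1 among them, was not tested.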

How the data were processed

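For each array the authors deposited the file of the scanner software, Agilent Feature Extraction 10.7.3.1. The processed signal in it is a deposited intensity, already corrected for background by the authors' software and not normalized between arrays. The deposited mean and background intensities and the deposited flags were used for alternatives and filters. Of a series-wide table, 4 value columns matched no sample and were not used. Here, log2 processed signals of non-control spots were taken minus the 75th percentile of the array, outlier spots (99 to 131 per array) were left out, and spots of a probe were averaged. Probes had to be well above background on each array of 1 or both genotypes to be tested, and a gene was represented by its brightest such probe. The genotypes were compared in R 4.3.3 by moderated linear models (limma 3.58.1, lmFit and eBayes), and p-values were adjusted over all genes (Benjamini-Hochberg). With 2 arrays per genotype, whose separate animals the labels do not state, p-values measure the spread between these samples, and precision is limited by the number of arrays. The study's legends give more mice per genotype for its arrays than the arrays analysed here, and how the arrays relate to those mice is not given in the sources used here. The procedure was tested on simulated data in which noise did not depend on signal level and the background flags were those of the real arrays. The greater noise of dim probes was thus not covered.

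The genes named are every probe of the 7 mucins, the 3 largest increases and 3 largest decreases without overlap in each of 4 lists of related genes, Muc19, and the 3 most similar genes of each mucin spanning at least 1 log2 unit. Neighbouring genes, Myd88 and other genes singled out were chosen after their values were seen. The mucins, the lists and the marker lists were chosen with earlier results of these data known. Gene names follow the files, and 15496 of 22312 tested genes had a name in the RefSeq table. The gene named Clca3 in the files is the one RefSeq now names Clca1 (matched by accession), and the gene named Clca1 in the files, which stands in the packaging and the goblet lists, is another gene. The 17 alternatives were other background corrections, scalings, filters, ways to combine probes, moderation, the t-test named in the methods, the replicate number as a block and each array left out; a crossed block was added after the data were seen.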

Additional observations from a re-analysis of the deposited data

How the results depend on the processing

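Of the 4 tested mucins, Muc1, Muc13 and Muc20 kept their direction under every alternative that tested them, and 0 passed the adjusted threshold under any. Most of these alternatives could not have turned the direction of Muc1, Muc13 or Muc20, unlike the other background correction and scalings. The log2 difference of Muc5b turned to -0.30 without Myd88-/- array 2 and to -0.55 without Myd88+/+ array 2, and ranged up to 1.11 (without Myd88+/+ array 1) with 1 array left out. With normexp background correction 79 of all tested genes passed the adjusted threshold, 402 with median scaling, 482 with trended and robust moderation and 1 with the methods' t-test on log2 as on linear values, against 0 as reported. Among O-glycosylation genes the count was 1 with normexp (Gcnt1), 2 with median scaling (Gcnt1 and Gal3st2) and 3 with trended and robust moderation (Gcnt1, Galnt6 and Gne), and among other mucin genes 1 with normexp (Smgc) and 2 with trended and robust moderation (Smgc and Prol1). With median scaling the 4 tested mucins all had a standard error of 0.54. Calls under that setting thus followed the size of a difference and not the gene's own spread. The cause of the differing counts was not tested. With each array left out, 0 genes passed in any list. The replicate numbers did not pair the arrays: deviations of same-numbered arrays correlated at -0.37 over genes, and with the replicate number as a block 0 genes passed. With crossed pairs as the block, chosen after the data were seen, 0 passed. Single spots and dim signals limit Muc1, and Muc4, Muc15 and Muc16 could not be compared at this signal over background.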
